A study of Mus musculus with 20 samples.

Results

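The sites compared here are the binding sites of PPARgamma and the open chromatin of 3T3-L1 cells on day 6 of adipocyte differentiation. They comprised 5493 PPARgamma peaks from chromatin immunoprecipitation sequencing (ChIP-seq) and 11936 DNase I hypersensitive site (DHS) peaks from DHS-seq. Together they made up 17429 of the 284878 peaks in the 19 peak lists of the series. Peaks of the pair of lists with 1 bp or more in common on genome build mm9 were taken as shared sites. That rule gave 1694 PPARgamma peaks in DHS, 3799 PPARgamma peaks outside DHS, and 10192 DHS peaks without PPARgamma. The shared sites counted as DHS peaks numbered 1744.

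3T3-L1 is a mouse preadipocyte line that turns into fat-storing cells under hormonal induction. Per the labels, day 6 cells, which the labels call mature adipocytes, came from cultures induced at day 0, when they had been confluent for 2 days. The inducers were fetal bovine serum, 3-isobutyl-1-methylxanthine, insulin and dexamethasone. Serum and insulin alone were given from day 2, and serum alone after that. The other lists, all from the same line, were DHS-seq of day 0 (not induced), 2 hours, 4 hours, day 1 and day 2, and ChIP-seq of C/EBPbeta (day 0, 2 hours, 4 hours, day 2), C/EBPdelta (day 0, 4 hours), of PPARgamma (day 2), of RNA Pol II (day 0, 4 hours), and of RXR, Stat5a and GR (each at 4 hours). Each group held 1 library, so nothing below was tested against replicate spread. The lists hold positions only, with no expression value, so the adipocyte stage was not checked against marker genes.

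PPARgamma is a nuclear receptor that binds DNA as a heterodimer with RXR and is required for the formation of fat cells. C/EBPbeta and C/EBPdelta are leucine zipper factors that act early in differentiation, before PPARgamma is abundant. Small fragments cut by DNase I mark stretches of DNA that nucleosomes leave accessible, most often promoters and enhancers. RNA Pol II transcribes protein-coding genes and is often enriched at promoters.

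Fewer PPARgamma peaks lay inside the DHS list of their own day than outside it. Of the 5493 PPARgamma peaks, 1694 (30.8%, 95% exact Clopper-Pearson interval 29.6 to 32.1) overlapped a day 6 DHS peak. Of the 11936 day 6 DHS peaks, 1744 (14.6%, 14.0 to 15.3) overlapped a PPARgamma peak. All intervals cover counting over the peaks of these libraries only. As background, the 19 lists were merged into 77867 union regions, of which 14.7% held a day 6 DHS peak and 7% a day 6 PPARgamma peak. Most overlaps paired 1 peak with 1 peak: 1640 PPARgamma peaks held 1 DHS peak, 52 held 2 and 2 held 3, and 6 DHS peaks held 2 PPARgamma peaks each.

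The overlap was seldom marginal. PPARgamma peaks in DHS shared a median of 446 bp with the DHS peak (quartiles 349 to 535 bp). Just inside the rule lay 26 PPARgamma peaks that overlapped by 1 to 100 bp, with a median width of 764 bp. Just outside it lay 23 that missed a DHS peak by under 100 bp, with a median width of 793 bp. The middles of the PPARgamma peak and its DHS peak were a median of 96.5 bp apart, and 51.7% (49.3 to 54.1) of pairs were within 100 bp. The DHS peak fell to either side of the PPARgamma middle in similar numbers.

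**Figure D1:**
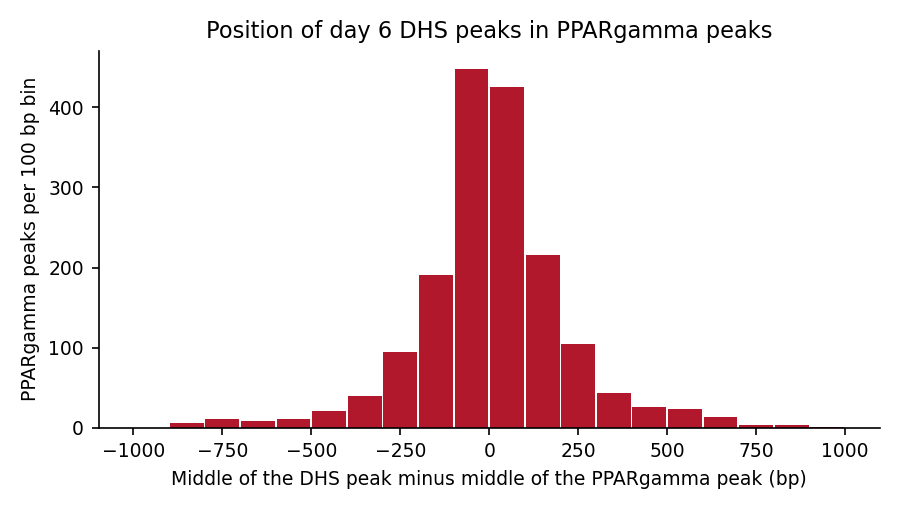
Distance in bp, along the chromosome, from the middle of each day 6 PPARgamma peak to the middle of the nearest day 6 DHS peak that overlaps it; bars count PPARgamma peaks per 100 bp. The bins on either side of 0 are the tallest, the median distance was 96.5 bp, and 1 peak lies beyond the plotted range.

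Wide PPARgamma peaks were in DHS more often than narrow ones. Median width was 849.5 bp for PPARgamma peaks in DHS and 728 bp for those outside. PPARgamma peaks were split by width into 4 classes of near-equal number. From narrow to wide, the share in DHS was 16.7%, 26.5%, 32.6% and 47.6%. The intervals of neighbouring width classes did not overlap. The width of the DHS peak showed no such increase: from narrow to wide, 15.6%, 15.7%, 13.9% and 13.3% of DHS peaks held PPARgamma. Peak heights are not in the lists, so the part that signal strength plays in the width pattern was not tested.

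Peaks outside DHS were not simply beside a DHS peak. Their median distance to the nearest day 6 DHS peak was 21940 bp (quartiles 6296 to 59030 bp). A DHS peak lay within 1 kb of 7.32% (6.51 to 8.19) of them, within 10 kb of 33.0% and within 100 kb of 86.1%. PPARgamma peaks also lay near each other whether in DHS or not. Another PPARgamma peak was within 10 kb of 31.6% (29.4 to 33.9) of those in DHS and 29.6% (28.2 to 31.1) of those outside.

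Day 6 PPARgamma peaks matched the DHS list of day 2 more often than that of day 6. Of the 5493 peaks, 11.2% were in the DHS list of day 0, 14.0% in that of 2 hours, 32.8% in that of 4 hours, 42.4% in that of day 1, 56.8% (55.5 to 58.1) in that of day 2 and 30.8% in that of day 6. The lists differ in length, with 11936 peaks on day 6 and 25097 on day 2. They differ in width too, with a shortest peak of 150 bp and a median of 484 bp on day 6, against 251 bp and 616 bp on day 2. Whether the same peak calling was used for both is not given in the sources used here, and its part in the comparison was not tested. With every DHS list held to its 9055 widest peaks, the length of the shortest list, the shares became 10.7%, 14.0%, 14.0%, 17.5%, 29.5% and 23.2% in the same order. Day 6 was then below day 2, at 23.2% (22.1 to 24.3) against 29.5% (28.2 to 30.7), but the 4 hours share no longer exceeded that of 2 hours. This cut equalised number, not width. It kept most of the 11936 day 6 peaks, but only peaks at or above the median of 616 bp from the 25097 of day 2. It therefore cannot separate the day from the width of the peaks kept. For comparison, the 3168 PPARgamma peaks of day 2 were in the day 6 list in 28.2% (26.6 to 29.8) of cases and in the day 2 list in 74.0% (72.4 to 75.5).

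**Figure D2:**
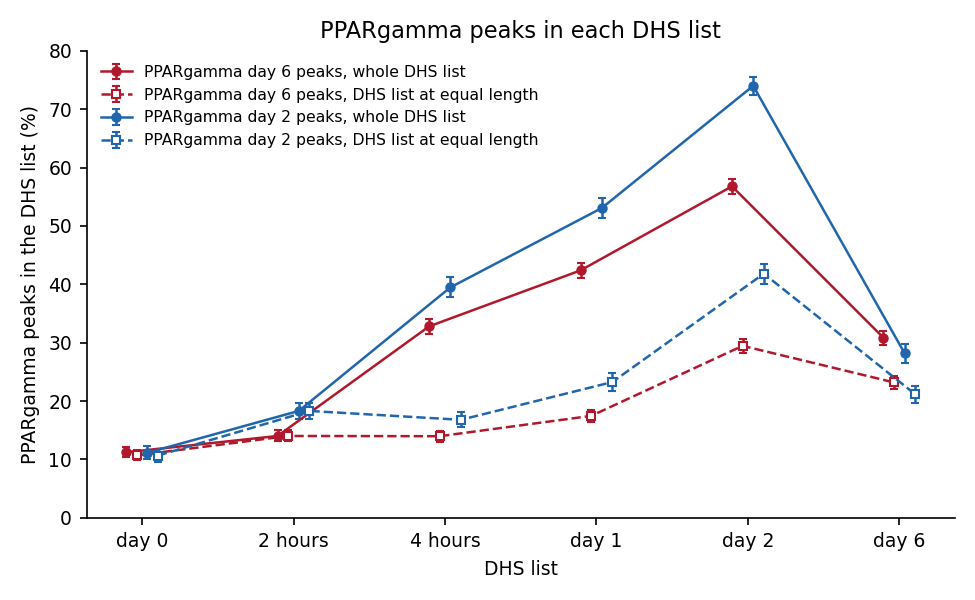
Share in percent of day 6 (red) and day 2 (blue) PPARgamma peaks that overlap each DHS list, for whole lists (filled circles) and for the 9055 widest peaks of each list (open squares), with exact 95% intervals. Both sets of PPARgamma peaks reach their highest share in the day 2 list, 56.8% and 74.0% for whole lists.

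Seen from the DHS lists, the share of peaks with day 6 PPARgamma was 6.25% on day 0, 8.55% at 2 hours, 5.79% at 4 hours, 6.84% on day 1, 12.6% on day 2 and 14.6% on day 6. Day 2 DHS peaks that held day 6 PPARgamma were listed again on day 6 in 1541 of 3173 cases (48.6%, 46.8 to 50.3), against 8569 of 21924 (39.1%, 38.4 to 39.7) without it. Among day 2 peaks with no RNA Pol II of day 0 or 4 hours the gap was wider, at 42.6% with PPARgamma and 19.4% without. Peaks listed again were the wider ones, also among those with no RNA Pol II. With PPARgamma the median was 818 bp for peaks listed again and 625 bp for the rest, and without it 730 bp and 550 bp.

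Most PPARgamma peaks in DHS (91.6%) had been in an earlier DHS list, as had 96.9% of DHS peaks without PPARgamma. A smaller share of the PPARgamma peaks in DHS than of those other DHS peaks dated from day 0. The day 0 list, present at 12.5% of union regions, contained 32.6% (30.4 to 34.9) of PPARgamma peaks in DHS, 1.69% (1.30 to 2.15) of those outside and 65.6% (64.6 to 66.5) of DHS peaks without PPARgamma. The difference was 31.0 percentage points (95% Newcombe interval 28.7 to 33.3) between PPARgamma peaks in and outside DHS. Between PPARgamma peaks in DHS and DHS peaks without PPARgamma it was -32.9 points (-35.3 to -30.5). That difference was 7.78 points in the narrowest of the 4 width classes, where PPARgamma and DHS widths are each ranked in their own list. Counted as DHS peaks, the shared sites gave 31.8% on day 0 and differences of -25.0, -35.1, -42.2 and -26.3 points from narrow to wide DHS peaks.

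The contrast with other DHS peaks varied over the following lists. At 2 hours, with a background of 11.3%, the shares were 34.2% for PPARgamma in DHS, 5.001% for PPARgamma outside and 41.9% for DHS without PPARgamma. The 2 hours difference of -7.67 points between PPARgamma in DHS and DHS without PPARgamma was 18.0 and 9.54 points in the 2 narrower width classes and -44.2 in the widest. Counted as DHS peaks, the shared sites gave -3.69 points (-7.45 to 0.478) in the narrowest DHS class. At 4 hours, with a background of 39.4%, the shares were 64.9%, 18.4% and 91.6% in that order. On day 1, with a background of 43.5%, they were 77.5%, 26.7% and 94.7%. On day 2, with a background of 30.9%, they were 89.1%, 42.4% and 86.7%. The day 2 difference between PPARgamma in DHS and DHS without PPARgamma was 2.44 points (0.744 to 3.99). It held 0 within its interval when 200 bp around the middle of each peak were used (0.986 points), and took the other sign among wide peaks (-8.41 points in the widest of the 4 width classes).

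The first appearance of a site summarises this history. Of the PPARgamma peaks in DHS, 553 (32.6%) were first listed on day 0, 184 (10.9%) at 2 hours, 382 (22.6%) at 4 hours, 217 (12.8%) on day 1, 215 (12.7%) on day 2 and 143 (8.44%) on day 6 alone. Of the DHS peaks without PPARgamma, 6683 (65.6%) were first listed on day 0, 391 (3.84%) at 2 hours, 2356 (23.1%) at 4 hours, 377 (3.70%) on day 1, 67 (0.657%) on day 2 and 318 (3.12%) on day 6. The gap for sites first listed on day 2 was 12.0 points. Counted as DHS peaks, the shared sites gave a day 2 gap of 19.3 points among the narrowest DHS peaks and 5.72 points among the widest. The shares first listed at 4 hours differed by -0.566 points (-2.66 to 1.64). That value covers opposite differences by width, which counted as DHS peaks were -15.1 points (-19.2 to -10.7) among the narrowest and 8.40 points (5.27 to 12.2) among the widest. Of the PPARgamma peaks outside DHS, 1973 (51.9%, 50.3 to 53.5) were in no DHS list at all, and 687 (18.1%) were in the day 2 list only.

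**Figure D3:**
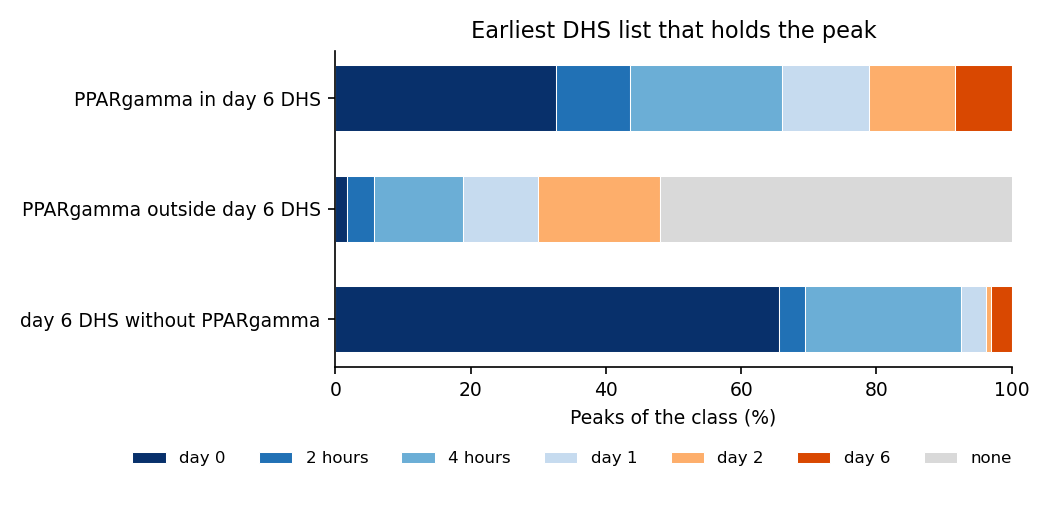
Horizontal bars give the share of each class, in percent of its peaks, by the earliest DHS list that holds the peak; grey marks peaks in none of the 6 lists. The day 0 segment is 32.6% for PPARgamma in DHS, 1.69% for PPARgamma outside DHS and 65.6% for DHS without PPARgamma.

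Presence in all 6 lists was found for 395 (23.3%, 21.3 to 25.4) of the PPARgamma peaks in DHS and 3758 (36.9%, 35.9 to 37.8) of the DHS peaks without PPARgamma. Of the PPARgamma peaks outside DHS, 34 (0.895%) were in all 5 earlier lists. Presence from 4 hours to day 6 covered 353 (20.8%) PPARgamma peaks in DHS and 1848 (18.1%) DHS peaks without PPARgamma. Presence on day 2 and day 6 only covered 215 (12.7%) of the PPARgamma peaks in DHS.

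Turned round, day 6 DHS peaks first listed on day 2 held PPARgamma most often and those first listed on day 0 least often, with 4 hours below its neighbours. PPARgamma lay at 555 of 7238 (7.67%, 7.07 to 8.31) peaks first listed on day 0, 189 of 580 (32.6%, 28.8 to 36.6) first listed at 2 hours and 387 of 2743 (14.1%, 12.8 to 15.5) first listed at 4 hours. It lay at 230 of 607 (37.9%, 34.0 to 41.9) first listed on day 1, 227 of 294 (77.2%, 72.0 to 81.9) first listed on day 2 and 156 of 474 (32.9%, 28.7 to 37.3) found on day 6 alone. The intervals of 2 hours, day 1 and day 6 overlap, and those of day 0, 4 hours and day 2 stand apart from all others. Without RNA Pol II peaks, day 0 stayed lowest at 12.9% and day 2 highest at 78.9%. With the earlier lists held to equal length, the day 2 class grew to 510 peaks and its share was 49.6% (45.2 to 54.0), still the highest of the 6. The shares were then 7.79% on day 0, 30.1% at 2 hours, 10.01% at 4 hours, 30.85% on day 1 and 20.65% on day 6. In that version 2 hours and day 1 were alike, so no steady rise led up to day 2.

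**Figure D4:**
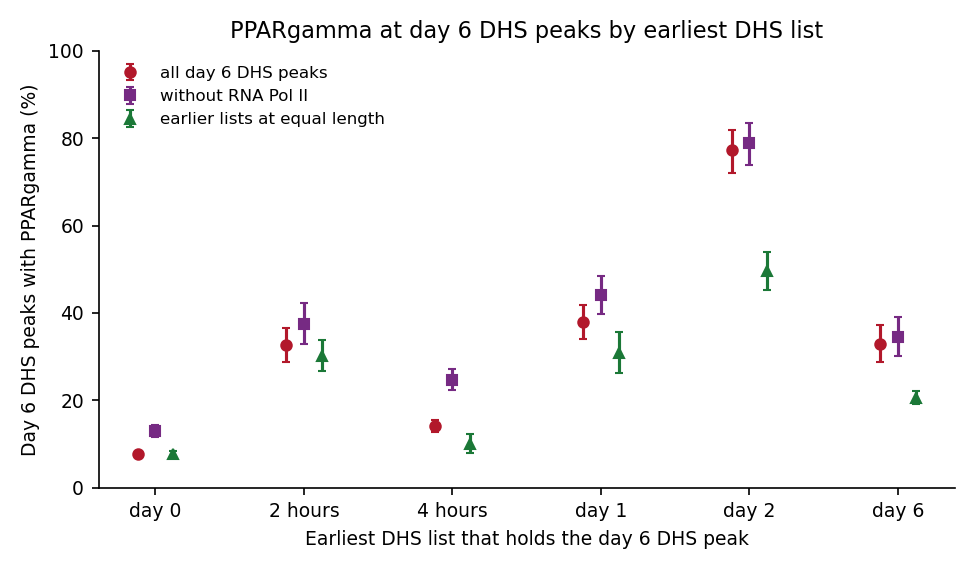
Share in percent of day 6 DHS peaks that hold day 6 PPARgamma, by the earliest DHS list that holds the DHS peak, for all peaks, peaks without RNA Pol II, and earlier lists held to equal length; bars are exact 95% intervals. Peaks first listed on day 2 have the highest share in each version, 77.2%, 78.9% and 49.6%.

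Sites first listed at different times also differed in which other lists held them. Among the 227 DHS peaks first listed on day 2 with PPARgamma of day 6, PPARgamma was already listed on day 2 at 127 (55.9%, 49.2 to 62.5), C/EBPbeta of day 2 at 110 (48.5%) and C/EBPbeta of day 0 at 21 (9.25%). RNA Pol II was at 2 of them. Among the 67 without day 6 PPARgamma, C/EBPbeta of day 2 was at 17 (25.4%, 15.5 to 37.5) and RNA Pol II at 7. Sites found on day 6 alone seldom held the factors of day 2: of the 156 with PPARgamma, 16 (10.3%) had held PPARgamma and 25 (16.0%) C/EBPbeta on day 2.

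PPARgamma peaks in DHS first listed at 2 hours had the highest shares of C/EBPbeta, GR, Stat5a and RXR among the 6 times of first listing. Of these 184, C/EBPbeta was listed at 150 (81.5%) on day 0, 165 (89.7%) at 2 hours, 175 (95.1%) at 4 hours and 165 (89.7%) on day 2, and at 4 hours GR at 101 (54.9%), Stat5a at 83 (45.1%) and RXR at 70 (38.0%). Of the 553 first listed on day 0, GR was at 20.3%, Stat5a at 17.7% and RXR at 17.2%. Of the 215 first listed on day 2, C/EBPbeta was listed at 9.77% on day 0, 12.6% at 2 hours, 17.7% at 4 hours and 52.6% on day 2.

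Whether a PPARgamma peak was in DHS on day 6 followed how early its site had been listed. Of the PPARgamma peaks first listed in DHS on day 0, 553 of 617 (89.6%, 87.0 to 91.9) were in DHS on day 6. The share was 54.8% for those first listed at 2 hours, 43.3% at 4 hours, 33.9% on day 1, 23.8% on day 2 and 6.76% (5.73 to 7.91) for the 2116 in no earlier list. Each interval lay below that of the time before. As background, 7238 of the 11936 day 6 DHS peaks overlapped the day 0 list, which holds 9989 peaks. Of the day 2 DHS peaks without day 6 PPARgamma, 39.1% were listed again on day 6. The lists range from 9055 to 35389 peaks, and this order was not repeated at equal list length or by width. Whether it is particular to PPARgamma peaks was not tested.

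C/EBPbeta marked more PPARgamma peaks in DHS than either other class, at every time. On day 0, with a background of 25.9%, it was at 46.5% (44.1 to 48.9) of PPARgamma peaks in DHS, 22.5% of those outside and 21.2% of DHS peaks without PPARgamma. At 2 hours, with a background of 24.9%, the shares were 45.3%, 24.1% and 17.3% in that order. At 4 hours, with a background of 37.8%, they were 52.8%, 32.4% and 21.9%. On day 2, with a background of 27.1%, they were 58.9%, 45.5% and 13.9%. The highest share of PPARgamma peaks with C/EBPbeta was thus on day 2 in both PPARgamma classes, while DHS peaks without PPARgamma had their lowest share on that day. Among peaks with no RNA Pol II, PPARgamma peaks outside DHS held less C/EBPbeta than DHS peaks without PPARgamma on day 0 (21.7% and 32.4%), at 2 hours (23.5% and 27.3%) and at 4 hours (31.7% and 33.5%, with overlapping intervals).

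The gap between PPARgamma peaks in and outside DHS was smallest for C/EBPbeta of day 2. It was 24.0 points (21.3 to 26.7) on day 0, 21.2 at 2 hours, 20.4 at 4 hours and 13.4 (10.6 to 16.2) on day 2, where it came to 8.62 points among the wider peaks of each list. The gap between PPARgamma peaks in DHS and DHS peaks without PPARgamma was largest on day 2, at 25.3, 28.1, 30.9 and 45.1 (42.6 to 47.5) points. Without RNA Pol II peaks the same gaps were 13.9 points on day 0, 18.4 at 2 hours, 19.8 at 4 hours and 39.0 on day 2. RNA Pol II also differs in share between these classes, and its part in the gaps was not tested beyond that restriction.

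All 4 C/EBPbeta lists held 637 (37.6%, 35.3 to 40.0) of the PPARgamma peaks in DHS, 630 (16.6%) of those outside and 1155 (11.3%) of the DHS peaks without PPARgamma. None of the 4 held 565 (33.4%) of the PPARgamma peaks in DHS, 1878 (49.4%) of those outside and 7516 (73.7%) of the DHS peaks without PPARgamma. By number of C/EBPbeta lists from 0 to 4, the share of PPARgamma peaks in DHS was 23.1%, 24.6%, 30.04%, 31.1% and 50.3%. Lasting C/EBPbeta presence, at all 4 times, set its peaks apart from those with 3 times, whose interval (26.8 to 35.7) lay below 47.5 to 53.1. By the same number, the share of DHS peaks with PPARgamma was 7.69%, 26.9%, 24.1%, 21.6% and 35.1%.

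PPARgamma had often been in place on day 2. Its day 2 list, with a background of 4.03%, held 803 (47.4%, 45.0 to 49.8) of the day 6 PPARgamma peaks in DHS, 1313 (34.6%, 33.0 to 36.1) of those outside and 1.12% of DHS peaks without day 6 PPARgamma. The difference between peaks in and outside DHS was 12.8 points (10.02 to 15.7). It depended on width: within the narrowest of the 4 width classes it was -1.33 points (-6.55 to 4.72), and in the next 3.495 points (-2.04 to 9.24), both with 0 inside the interval. Of the 916 day 6 DHS peaks that held PPARgamma of day 2, 802 (87.6%, 85.2 to 89.6) held it again on day 6, against 8.55% of the other 11020.

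PPARgamma and C/EBPbeta of day 2 each went with a higher share in DHS. PPARgamma peaks of day 6 were in DHS in 38.6% (36.2 to 41.1) of cases with both, 36.1% (32.2 to 40.2) with PPARgamma alone, 34.0% (31.3 to 36.7) with C/EBPbeta alone and 22.2% (20.5 to 24.1) with neither. The 3 higher intervals overlap each other in part and lie above the last. For C/EBPbeta, the higher share was not seen among PPARgamma peaks with RNA Pol II, as given below. Day 6 DHS peaks held PPARgamma in 88.6% of cases with both, 85.0% with PPARgamma of day 2 alone, 23.2% with C/EBPbeta alone and 5.79% with neither.

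RNA Pol II set DHS peaks without PPARgamma apart from the shared sites. The day 0 list, with a background of 17.5%, held 19.1% (17.2 to 21.0) of PPARgamma peaks in DHS, 2.69% of those outside and 58.2% (57.3 to 59.2) of DHS peaks without PPARgamma. The 4 hours list, with a background of 14.8%, held 16.8%, 3.05% and 52.3% in that order. On day 0 the difference was 16.4 points (14.5 to 18.4) between PPARgamma peaks in and outside DHS, and -39.2 points between PPARgamma in DHS and DHS without PPARgamma. Counted as DHS peaks, the shared sites differed from those without PPARgamma by -29.1 points among the narrowest DHS peaks and -34.5 among the widest. With every peak set to 200 bp, the contrast of PPARgamma peaks in and outside DHS shrank to 4.35 points on day 0 and 2.30 at 4 hours. The series has RNA Pol II of day 0 and 4 hours only, so these lists describe the site before or just after induction.

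A PPARgamma peak with RNA Pol II in either list was in DHS in 373 of 531 cases (70.2%, 66.2 to 74.1), against 26.6% of those with none. A DHS peak with RNA Pol II held PPARgamma in 5.67% (5.13 to 6.25) of cases, against 26.5% (25.3 to 27.7) of those with none. Among PPARgamma peaks with RNA Pol II, 70.9% (64.7 to 76.6) with C/EBPbeta of day 2 and 69.7% (64.1 to 74.9) without it were in DHS. Among PPARgamma peaks with no RNA Pol II, these shares were 33.3% and 19.9%. For DHS peaks, C/EBPbeta of day 2 went with more PPARgamma whether or not RNA Pol II was listed. Among DHS peaks with RNA Pol II, PPARgamma was at 23.7% of those with C/EBPbeta and 3.70% of those without. Among DHS peaks with no RNA Pol II, it was at 47.7% with C/EBPbeta and 15.7% without. RNA Pol II middles were a median of 226.5 bp from the PPARgamma middle in DHS, against 79.75 bp for C/EBPbeta of day 2 and 69 bp for PPARgamma of day 2.

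**Figure D5:**
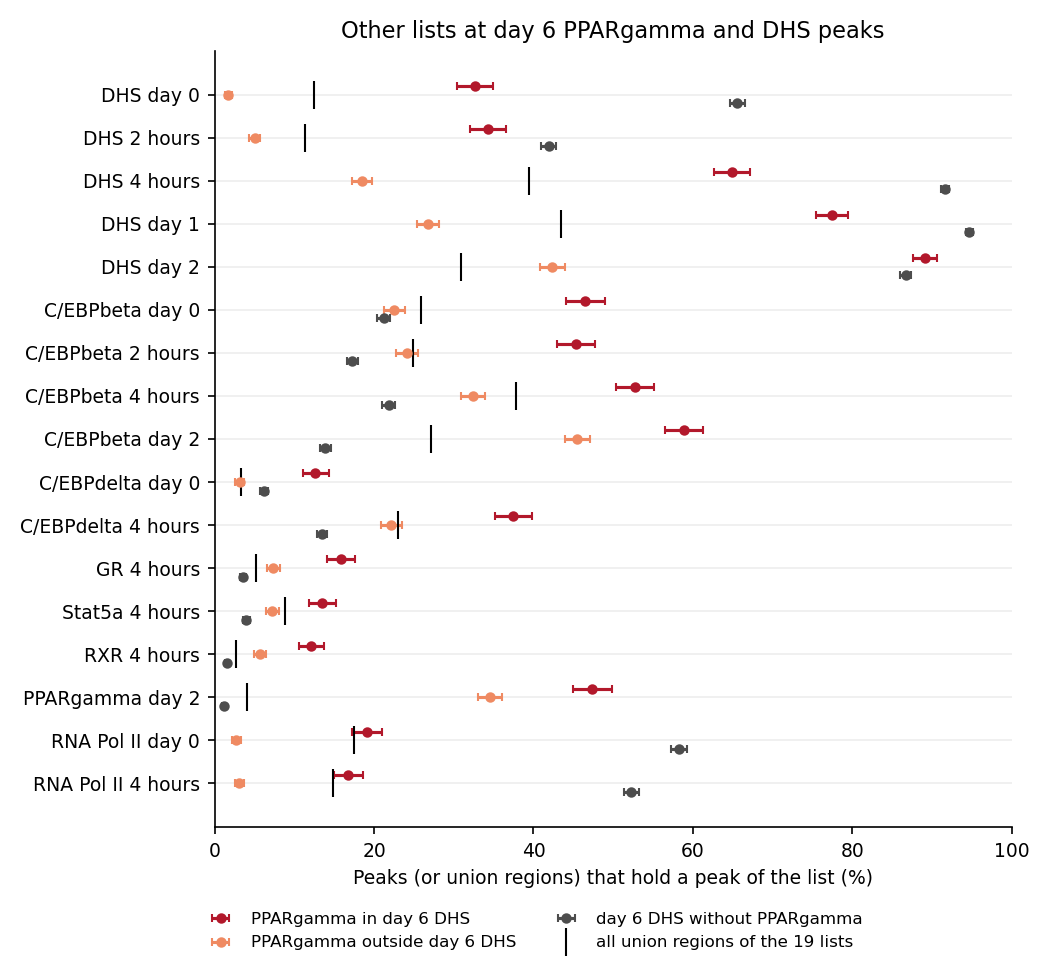
Each row gives the share, in percent with exact 95% intervals, of PPARgamma peaks in day 6 DHS (red), PPARgamma peaks outside (orange) and DHS peaks without PPARgamma (grey) that overlap a peak of the list; the black tick is the share of all 77867 union regions. DHS peaks without PPARgamma lead for DHS up to day 1 and for RNA Pol II, and PPARgamma in DHS leads for every transcription factor, for example 47.4%, 34.6% and 1.12% for PPARgamma of day 2.

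The other early factors were also most frequent at PPARgamma peaks in DHS. C/EBPdelta, a close relative of C/EBPbeta, was listed on day 0 (background 3.26%) at 12.6% of PPARgamma peaks in DHS, 3.13% of those outside and 6.21% of DHS peaks without PPARgamma. At 4 hours (background 23%) it was at 37.4%, 22.1% and 13.5% in that order. GR, the receptor for dexamethasone (background 5.21%), was at 15.8%, 7.32% and 3.51%. Stat5a, a cytokine and hormone signalling factor (background 8.87%), was at 13.5%, 7.24% and 3.98%. RXR, the partner of PPARgamma (background 2.63%), was at 12.1%, 5.69% and 1.51%. Among peaks with no RNA Pol II, PPARgamma peaks in DHS stayed highest, but PPARgamma peaks outside were not above DHS peaks without PPARgamma for GR (7.22% and 7.84%) or Stat5a (7.14% and 8.05%).

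The sites bound by RXR at 4 hours most often held PPARgamma among the factors of 4 hours: 203 of 357 (56.9%, 51.5 to 62.1) day 6 DHS peaks with RXR did, against 13.3% of those without. The shares were 42.6% with GR, 35.6% with Stat5a, 31.1% with C/EBPdelta and 28.6% with C/EBPbeta. This order was the reverse of the order of list length, which ran from 2076 peaks for RXR to 29957 for C/EBPbeta. The lists were not held to equal length for this ranking, and the part of list length in it was not tested. The number of factors listed at 4 hours, RXR, GR, Stat5a and the C/EBP pair, went with the share in both directions. From 0 to 5 factors, PPARgamma peaks were in DHS in 23.6%, 36.6%, 40.8%, 43.2%, 48.4% and 50.9% of cases. Day 6 DHS peaks held PPARgamma in 9.62%, 19.6%, 26.6%, 32.4%, 44.0% and 58.6% (51.0 to 65.8) of cases.

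PPARgamma peaks outside DHS were split by whether an earlier DHS list held them. The 1826 that had been in an earlier DHS list held C/EBPbeta of 4 hours in 54.9% (52.6 to 57.2) of cases, C/EBPbeta of day 2 in 70.1% (67.9 to 72.2), PPARgamma of day 2 in 52.8%, GR in 14.6% and RXR in 11.3%. The 1973 in no DHS list held the same lists in 11.4%, 22.8% (20.9 to 24.7), 17.7%, 0.608% and 0.456%. RNA Pol II of day 0 was at 4.38% of those in an earlier DHS list and 1.11% of those in none. For C/EBPbeta of day 2, the PPARgamma peaks in DHS lay between, at 58.9% (56.5 to 61.3).

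A PPARgamma peak of day 6 with no peak of any other list was a common finding. There were 1253 such peaks, which is 22.8% (21.7 to 23.9) of all PPARgamma peaks and 33.0% of those outside DHS. Their median width was 689 bp. Of the DHS peaks without PPARgamma, 270 (2.65%) were in no other list. The median number of the 19 lists that held a peak was 9 for PPARgamma in DHS, 3 for PPARgamma outside DHS and 7 for DHS without PPARgamma. These numbers count the lists that define the class, 2 for PPARgamma in DHS and 1 for each other class. A DHS peak also has more other lists of its own assay than a PPARgamma peak, which has only that of day 2. The classes are thus not on equal terms in these counts.

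Sites listed throughout, with RNA Pol II at both times, were more frequent among DHS peaks without PPARgamma. Every DHS list and the pair of RNA Pol II lists held 138 (7.91%, 6.69 to 9.28) of the DHS peaks with PPARgamma, against 2118 (20.8%, 20 to 21.6) of those without. Median DHS width was 472 bp with PPARgamma and 486 bp without.

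Single sites show these histories. The widest PPARgamma peak in DHS was on chromosome 10 at 117180393 to 117183380 (2988 bp) and overlapped 16 of the 19 lists: all 6 DHS lists, both RNA Pol II lists, both PPARgamma lists, both C/EBPdelta lists and all 4 C/EBPbeta lists. The next, on chromosome 15 at 76338317 to 76341146 (2830 bp), was in 5 lists, first listed in DHS on day 2, when C/EBPbeta and PPARgamma were also listed. The site on chromosome 1 at 195135842 to 195138391 had the same 5 lists. The third by width, on chromosome 6 at 52359574 to 52362294, differed from these by a DHS peak already on day 1. The chromosome 10 peak lies in a 100 kb window dense in DHS peaks, with 24 on day 0 and 18 on day 6. The input sample was not analysed, so whether reads pile up there in any library was not tested.

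The number of lists at a site includes the DHS lists, so sites first listed later can be in fewer. The widest PPARgamma peak first listed in DHS at 2 hours, on chromosome 4 at 32656752 to 32659003, was in 13 lists, including all 4 C/EBPbeta lists, C/EBPdelta of 4 hours and GR. The next in that class, on chromosome 2 at 46297960 to 46299673, was in 18 lists, every list but DHS of day 0. At 4 hours the widest were on chromosome 1 at 9537267 to 9539790 (9 lists) and on chromosome 9 at 44295302 to 44297443 (13 lists), both with RNA Pol II at both times. The second of day 0, on chromosome 17 at 21786318 to 21788808, was in 11 lists and lacked DHS of 2 hours. The second of day 1, on chromosome 2 at 150595899 to 150598146, was in 4 lists, with no other factor.

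Of the sites first seen on day 6, the widest, on chromosome 6 at 35237196 to 35239066, was in 3 lists, the third being C/EBPbeta of day 0. The next, on chromosome 17 at 27453366 to 27455180, was in the 2 day 6 lists alone. At the other end, 2 PPARgamma peaks in DHS were in all 19 lists. They lay on chromosome 6 at 138089414 to 138091080 and at 52110418 to 52111428.

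Of the 4 widest PPARgamma peaks outside DHS, those on chromosome 5 at 134316154 to 134318663 and chromosome 1 at 3521660 to 3524022 held PPARgamma of day 2 and both RNA Pol II lists with no DHS peak at any time. The peak on chromosome 17 at 33892594 to 33894862 (2269 bp) was in no other list, as were those on chromosome 3 at 87661357 to 87663174 and chromosome 13 at 74162663 to 74164442. The peak on chromosome 2 at 94017277 to 94019399 had been in DHS at 4 hours, day 1 and day 2.

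The widest DHS peak without PPARgamma, on chromosome 17 at 39979822 to 39985784, spanned 5963 bp and was in 13 lists. Among these were all 6 DHS lists, all 4 C/EBPbeta lists and PPARgamma of day 2. Its width stood far above the third quartile of 591 bp of the day 6 DHS list. The input sample was not analysed, so whether reads pile up there in any library was not tested. Each of the next 3 was also in all 6 DHS lists. They lay on chromosome 7 at 38968191 to 38970648 (8 lists) and at 38973462 to 38975806 (9 lists), and on chromosome 6 at 108609125 to 108611010 (12 lists).

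Windows of 100 kb with many PPARgamma peaks differed in their DHS history. The most, 13 peaks, lay on chromosome 3 at 10200001 to 10300000, where 5 were in DHS and the day 6 DHS list had 5 peaks. That window had no DHS peak on day 0, at 2 hours or at 4 hours, 2 on day 1 and 10 on day 2, with 9 C/EBPbeta and 9 PPARgamma peaks on day 2. The window on chromosome 10 at 117100001 to 117200000 held 12 PPARgamma peaks, 7 of them in DHS. Its DHS peaks numbered 24 on day 0, 17 at 2 hours, 17 at 4 hours, 18 on day 1, 19 on day 2 and 18 on day 6. The window on chromosome 8 at 10900001 to 11000000 held 10 PPARgamma peaks, 3 of them in DHS, and its DHS peaks numbered 3, 2, 10, 9, 12 and 6 over the same times. The first window had its first DHS peaks on day 1, and the second had them at every time. Because the input sample was not analysed, whether reads pile up in the second window in any library was not tested.

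By chromosome, the share of PPARgamma peaks in DHS ran from 20.3% (12.0 to 30.8; 16 of 79) on X to 36.8% (30.7 to 43.2; 89 of 242) on chromosome 7, and the intervals of these extremes overlap at their ends. The share of DHS peaks with PPARgamma ran from 5.44% (3.14 to 8.69) on X to 24.7% (21.6 to 27.9; 187 of 758) on chromosome 6. Chromosome 6 had 607 PPARgamma peaks, the most of any chromosome. Without it, 13.9% of day 6 DHS peaks held PPARgamma.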

How the data were processed

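The lists that the authors deposited, 1 for each of 19 samples, give chromosome, start and end in base pairs, without any height, score or number of reads. Positions are on mm9, per the submitters' processing notes. The peak caller, its threshold and the read depth are not given in the sources used here, and the input sample was not analysed. Day 6 DHS peaks shorter than 251 bp, the shortest width of the other DHS lists but day 1, made up 7.66% of that list. Overlaps of at least 1 bp, exact Clopper-Pearson intervals for shares and Newcombe intervals for differences were computed with Python 3.11.15, NumPy 2.4.6 and SciPy 1.17.1, and figures with Matplotlib 3.10.9. The code was tested on simulated peaks. With 1 library a group, no p-value is given. Named regions are the widest of each class and of each earliest DHS time, those in most lists, and the windows and chromosomes at the extremes. Members and lists were chosen with earlier results of these data known. Alternatives were other overlap rules, peak widths, list lengths, peaks without RNA Pol II, and leaving out each chromosome. Counting shared sites as DHS peaks and splitting the shares by earliest list were added after seeing the data.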

Additional observations from a re-analysis of the deposited data

How the results depend on the processing

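No paired analysis was possible because each group held 1 library. The reported 30.8% of PPARgamma peaks in DHS became 29.4% with an overlap of 50% of the shorter peak, 33.5% with a gap of 500 bp, 23.2% with every peak at 200 bp, 20.6% with the wider peaks of each list, 28.6% without the shortest DHS peaks, 23.2% at equal list length and 26.6% without RNA Pol II. Over the 4 width classes it was 16.7%, 26.5%, 32.6% and 47.6%. In other DHS lists (whole, then at equal length) it was 11.2% and 10.7% on day 0, 14.0% and 14.0% at 2 hours, 32.8% and 14.0% at 4 hours, 42.4% and 17.5% on day 1, and 56.8% and 29.5% on day 2. The reported 14.6% of DHS peaks with PPARgamma became 13.8%, 16.1%, 10.7% and 9.70% under the first 4 of these settings, 26.5% without RNA Pol II, 15.6%, 15.7%, 13.9% and 13.3% over the width classes, and 13.9% without chromosome 6.

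Of 1386 alternative values for 40 reported differences, 1359 had an interval that excluded 0, or held it, as the reported one did. The sign was the same wherever 0 was excluded. Many of these values came from leaving out a chromosome, which moved the differences little. Within the 4 width classes, 144 values kept side of 0 and sign in this way. There, 9 others took the other sign, 5 came to hold 0 and 2 came to exclude it. Of all 1386 values, 62 were smaller by over 1.5 times, such as -8.62 against -35.5 points for RNA Pol II of 4 hours in the narrowest class. The exceptions in sign or side of 0 concern PPARgamma in DHS against DHS without PPARgamma unless stated. Width classes, taken within each class's own list, gave for presence in DHS of day 0 7.78 points (narrowest), of 2 hours 18.0 and 9.54 (the 2 narrower), and of day 2 -6.39 and -8.41 (the 2 wider). For first listing they gave -19.0, -9.18, 5.20 and 18.2 points at 4 hours, narrow to wide, and in the narrowest class 2.03 at 2 hours, 1.31 on day 1 and -0.588 on day 6. They gave 0.690 for C/EBPdelta of day 0 (widest). For PPARgamma in against outside DHS they gave 2.24 for RXR (narrowest) and -1.33 and 3.495 for PPARgamma of day 2 (the 2 narrower). With shared sites counted as DHS peaks within DHS width classes, presence in DHS of 2 hours was -3.69 (narrowest) and of day 2 -3.89 and -0.584 (the 2 wider), and first listing at 4 hours was -15.1 (narrowest) and 8.40 (widest). Among the wider peaks of each list, presence at 2 hours was -2.70, on day 2 2.65, and first listing at 4 hours -5.74. Presence on day 2 was also 1.57 with the gap, 1.30 without the shortest peaks and 0.986 around the middle. The cause of these changes was not tested. Depth is unknown, so a site missing from a list may be one that its depth did not reach.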
